A study of Homo sapiens with 6 samples.

Results

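Mucins are large glycoproteins that cover epithelial surfaces. Their long domains of repeated serine- and threonine-rich sequence carry dense O-linked sugar chains. Secreted, gel-forming mucins (MUC2, MUC5AC, MUC5B and MUC6) build the mucus layer, and membrane mucins (MUC1, MUC4, MUC13, MUC16, MUC17 and MUC20) stand on the apical cell surface, where several of them bind growth factor receptors or are shed. Pancreatic ductal adenocarcinoma is known for abnormal production of several, MUC4 and MUC5AC among them. The 10 genes were taken by their symbols in the array annotation, of 36337 gene names there. They were represented by 23 of its 50599 probes, each printed as 1 spot. They were chosen by the difference between treated and control tumors in normalized log2 intensity, which was known from these arrays, so that difference is given for them as a description without a test. All 10 symbols matched a current RefSeq gene symbol.

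The tumors were subcutaneous xenografts of BxPC-3, an established line of human pancreatic adenocarcinoma cells, grown in nude mice, which lack T cells but keep other leukocytes. Treatment began at a tumor volume of 150 mm3. Deferasirox (DFX), an oral iron chelator, was given by gavage at 200 mg/kg to the treated mice over 21 days, and control mice received the vehicle alone. RNA was measured in 3 control and 3 DFX-treated tumors on one-color Agilent arrays, 1 tumor per array. Whole tumors were used, so fewer cells of a type and less RNA per cell cannot be told apart, and host mouse transcripts could also reach the human probes. All values are from 1 cell line. The human epithelial label was met by the arrays, since all 7 markers of pancreatic ductal epithelium (KRT7, KRT8, KRT18, KRT19, EPCAM, CDH1 and CLDN4) were well above background on all 6 arrays.

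Values are log2 intensities after quantile normalization, and a level of 1 probe is not set against that of another, since probes differ in how strongly they bind. On the 1 slide used, row 1 held the controls and row 2 the treated tumors, so slide row and treatment cannot be told apart. Between 50.3% and 56.5% of all probes were well above background on each array, no spot was saturated, and array correlations were 0.980 to 0.988 between the groups. Of the 23 mucin probes, 20 passed the detection filter, which asks for a signal different from its local background on all 6 arrays, and 17 were well above background on all 6. Each of the 10 genes had at least 1 probe of the latter kind. The precision of each value is limited by the number of tumors, 3 per group.

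The probes are 60 bases long, and what they match decides what a mucin value means. The MUC4 probes are shown first because they are of 2 kinds. Of the 4 probes, 3 hold tandem-repeat sequence of the large repeat domain, and 1 lies toward the 3′ end of the transcript, outside the repeat sequence. Sequences are written 5′ to 3′ as on the array, and capitals mark the longest run of at least 10 bases shared with another probe of the same gene.
MUC4 A_24_P239176: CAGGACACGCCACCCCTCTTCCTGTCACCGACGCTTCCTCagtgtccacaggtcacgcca
MUC4 A_24_P239177: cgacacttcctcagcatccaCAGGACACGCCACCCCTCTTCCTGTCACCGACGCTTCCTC
MUC4 A_33_P3417281: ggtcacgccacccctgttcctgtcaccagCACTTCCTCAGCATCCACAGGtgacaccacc
MUC4 A_24_P208825: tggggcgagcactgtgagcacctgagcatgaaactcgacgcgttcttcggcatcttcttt
A_24_P239176 and A_24_P239177 overlap by 40 bases at chr3:195514760-195514839 (hg19, minus strand), so they are nearly 1 measurement. A_33_P3417281 shares a run of 21 bases with A_24_P239177 although it is annotated at a separate place, chr3:195506310-195506369. A_24_P208825, at chr3:195474164-195474223, shares no run longer than 6 bases with the other 3 probes.

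The other sequences shown are of 1 probe each of MUC5B, MUC1, MUC16 and MUC17, without repeats shared between their own probes. For MUC17 this is A_24_P169507, which did not pass the detection filter. The tested MUC17 probe, A_23_P306610, is not printed.
MUC5B A_24_P102650: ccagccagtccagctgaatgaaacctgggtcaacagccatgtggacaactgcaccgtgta
MUC1 A_23_P137856: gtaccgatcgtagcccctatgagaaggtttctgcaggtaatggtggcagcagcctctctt
MUC16 A_23_P5211: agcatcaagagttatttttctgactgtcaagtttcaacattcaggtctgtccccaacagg
MUC17 A_24_P169507: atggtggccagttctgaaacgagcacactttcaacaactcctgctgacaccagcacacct
None of the 23 mucin probes shared a run of 20 bases with a probe of any other gene on the array, over the 50599 probes searched on the same strand. This holds also between MUC2, MUC5AC, MUC5B and MUC6, which are neighbours on chromosome 11. Probes with repeat sequence can bind several places along 1 transcript, which was not measured here.

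The largest difference among the mucins was that of MUC17, a membrane mucin of the intestinal brush border. Its probe A_23_P306610 (chr7:100701904-100701963, hg19, plus strand) read 5.97, 7.92 and 4.61 in control replicates 1 to 3 and 9.38, 9.77 and 9.01 in DFX replicates 1 to 3. The groups did not overlap, and the lowest treated tumor was above the highest control. The mean was 6.17 ± 1.66 (SD, n = 3) in controls and 9.39 ± 0.38 in DFX-treated tumors, a log2 difference of 3.22 (SE 0.81) or 9.32-fold. The second probe, A_24_P169507 (chr7:100677854-100677913), did not pass the detection filter. It was well above background on 2 DFX arrays and on no control array, at 2.02, 3.85 and 2.04 in controls and 4.93, 4.90 and 4.20 in DFX-treated tumors. Its mean with DFX was 1.64-fold higher when set against the lowest signal well above background on each control array. The DFX array that was not well above background is part of that mean, so the fold is not a strict lower bound. Both MUC17 probes thus pointed the same way, and control replicate 2 was the highest control for both.

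MUC13, a membrane mucin of the gastrointestinal tract with growth factor-like domains, was the other gene whose groups did not overlap. Its probe (A_23_P155236, chr3:124625256-124625315, hg19, minus strand) read 8.10, 8.83 and 6.06 in controls and 9.20, 9.66 and 8.88 with DFX. DFX replicate 3 and control replicate 2 were nearly level. The means were 7.66 ± 1.44 and 9.25 ± 0.40 (SD, n = 3), a log2 difference of 1.58 (SE 0.71) or 2.99-fold. Without control replicate 3, which was the lowest of the 6 tumors, the difference was 0.78.

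The other membrane mucins overlapped between the groups. MUC1, whose cytoplasmic tail takes part in signaling and whose shed part is a tumor marker, read 13.11, 13.34 and 11.55 in controls and 13.34, 13.52 and 13.27 with DFX (A_23_P137856, on pieces of chr1:155158652-155159726, hg19, minus strand). Only control replicate 3 stood apart, and the log2 difference of 0.71 (SE 0.47) was 0.16 without that tumor. The second MUC1 probe (A_33_P3332215, chr1:155161975-155162034) read 5.85, 6.06 and 4.99 against 5.95, 5.88 and 5.83, a log2 difference of 0.25 (SE 0.28) that was -0.072 without control replicate 3. For MUC1, then, both probes gave DFX-treated tumors close to control replicates 1 and 2.

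MUC16, which carries the CA125 antigen and binds mesothelin, read 8.98, 8.15 and 5.51 in controls and 8.55, 8.09 and 8.64 with DFX (A_23_P5211, on pieces of chr19:8966801-8968923, hg19, minus strand). The treated tumors lay among control replicates 1 and 2, far above control replicate 3. The log2 difference was 0.88 (SE 0.87) over all tumors and -0.14 without that control. The second MUC16 probe (A_33_P3313110, chr19:9060452-9060511), well above background on 2 arrays of each group, read 5.19, 4.61 and 3.36 in controls and 4.82, 3.81 and 4.27 with DFX. Its difference was -0.092 (SE 0.51), so both MUC16 probes differed in sign over all tumors and had the same sign, below 0, without control replicate 3. MUC20, a membrane mucin that binds the receptor MET, read 9.82, 9.01 and 8.09 in controls and 9.39, 9.04 and 9.49 with DFX (A_33_P3226775, chr3:195464463-195464522, hg19, plus strand). The groups overlapped, and the log2 difference of 0.33 (SE 0.43) was -0.11 without control replicate 3.

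MUC4, a partner of the receptor ERBB2 that appears early in pancreatic neoplasia, moved little. The overlapping repeat probe A_24_P239176 read 12.08, 11.89 and 12.00 in controls and 12.09, 12.10 and 11.93 with DFX. A_24_P239177 read 11.57, 11.33 and 11.41 against 11.52, 11.57 and 11.39. Both groups were interleaved, with log2 differences of 0.049 (SE 0.11) and 0.059 (SE 0.12) that turned negative, -0.069 and -0.063, under median scaling of the arrays. The third repeat probe, A_33_P3417281, read 9.58, 9.41 and 9.14 against 9.68, 9.73 and 9.52, a difference of 0.27 (SE 0.15). The probe toward the 3′ end, A_24_P208825, read 10.98, 10.74 and 9.85 in controls and 10.67, 11.01 and 10.90 with DFX. Control replicate 3 was 1.01 below the mean of the other controls at this probe and 0.014 above it and 0.039 below it at the overlapping repeat probes. The probes of MUC4 therefore disagreed on control replicate 3 while none of them separated the groups.

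**Figure D1:**
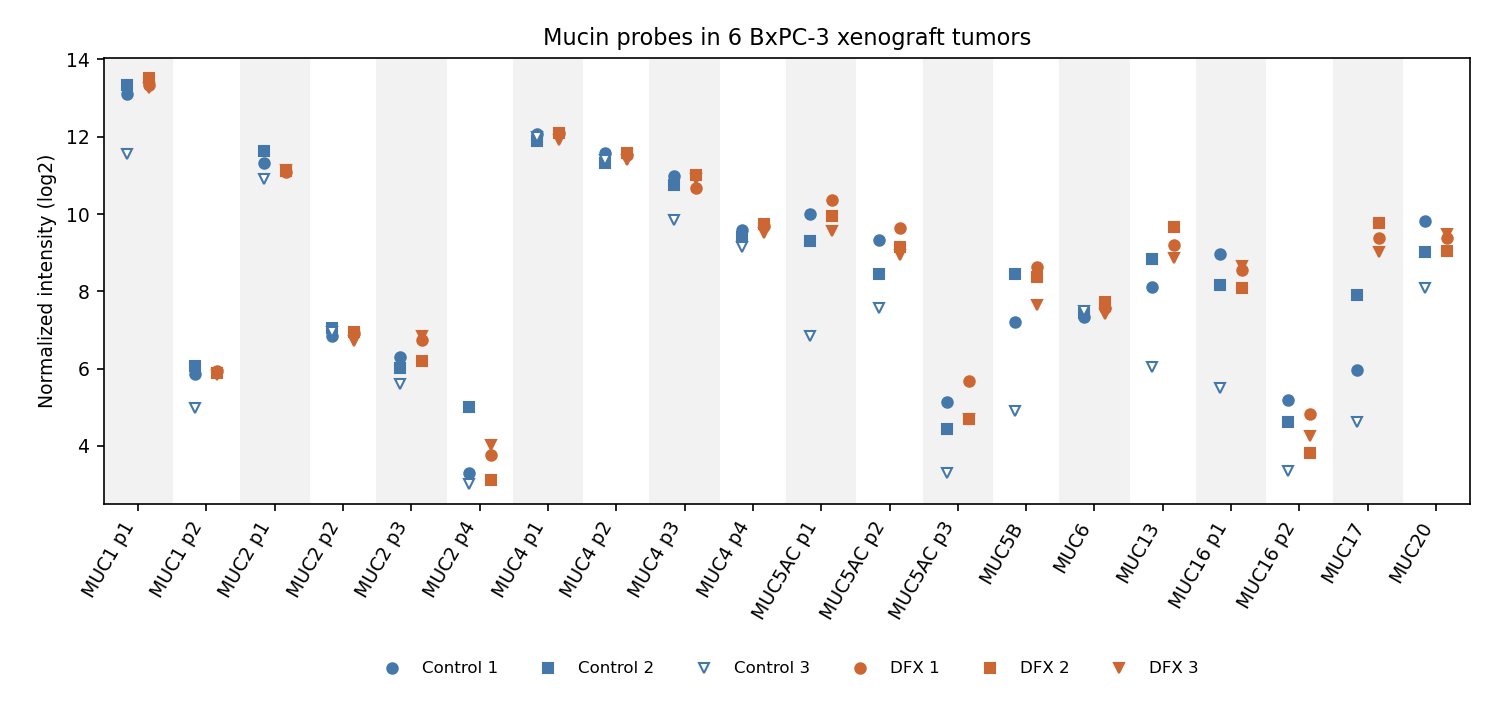
Normalized log2 intensity of the 20 mucin probes that passed the detection filter, in 3 control tumors (blue) and 3 DFX-treated tumors (orange). p1 to p4 number the probes of 1 gene from the brightest, each symbol is 1 tumor, and the open triangle, control replicate 3, is the lowest of the 6 tumors at 16 of the 20 probes.

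Among the secreted mucins, MUC5AC and MUC5B had the larger differences. MUC5AC, the surface mucin of stomach and airway, read 9.997, 9.30 and 6.84 in controls and 10.37, 9.96 and 9.56 with DFX at its brightest probe (A_24_P917886). The groups overlapped, because control replicate 1 was above DFX replicates 2 and 3. The log2 difference was 1.25 (SE 0.81) and 0.31 without control replicate 3. Its next probe, A_33_P3216570, had no position in the annotation and read 9.34, 8.45 and 7.58 against 9.63, 9.14 and 8.95, a difference of 0.78 (SE 0.45). The dim probe A_33_P3216568 (chr11:1161827-1161886, hg19, plus strand) was well above background on 2 arrays of each group and read 5.15, 4.44 and 3.31 against 5.67, 4.69 and 4.70, a difference of 0.72 (SE 0.52). All 3 probes placed control replicate 3 lowest and DFX replicate 1 highest.

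MUC5B, a gel-forming mucin of airway, salivary gland and gallbladder, read 7.21, 8.45 and 4.92 in controls and 8.62, 8.36 and 7.65 with DFX (A_24_P102650, on pieces of chr11:1281060-1281239, hg19, plus strand). Control replicate 2 lay among the treated tumors. The log2 difference was 1.35 (SE 0.88) and 0.38 without control replicate 3.

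MUC2, the main gel-forming mucin of intestinal goblet cells, was the 1 gene of the 10 that was lower with DFX at its brightest probe. That probe (A_23_P256784, on pieces of chr11:1103558-1103831, hg19, plus strand) read 11.33, 11.63 and 10.90 in controls and 11.08, 11.12 and 11.13 with DFX. The treated tumors lay between the controls and within 0.057 of each other, and the log2 difference was -0.18 (SE 0.20). The other MUC2 probes did not have 1 direction. A_33_P3412384 (chr11:1080924-1080983), toward the 5′ end, read 6.31, 6.03 and 5.60 against 6.74, 6.20 and 6.85, a difference of 0.62 (SE 0.25) with overlapping groups. A_33_P3401571 read 6.86, 7.06 and 6.95 against 6.92, 6.96 and 6.71, a difference of -0.10 (SE 0.12), and A_24_P84657, well above background on 1 array only, is given no fold. The MUC2 probes thus differed in sign, and none separated the groups.

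MUC6, the mucin of gastric glands, read 7.33, 7.45 and 7.48 in controls and 7.57, 7.72 and 7.42 with DFX (A_24_P88079, chr11:1015815-1015874, hg19, minus strand). The log2 difference was 0.15 (SE 0.12), and control replicate 3 was 0.090 above the mean of the other controls. The remaining MUC6 probes, A_33_P3304172 and A_33_P3314500, did not pass the detection filter and were each well above background on 1 array.

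By brightest probe, 9 of the 10 mucin genes were higher and 1 was lower in the DFX-treated tumors, where 47.6% of all 23805 genes were higher. With median scaling 8 were higher. With slide column as a block the lower gene was MUC4 and MUC2 was at 0.012. That block leaves control replicate 2 and DFX replicate 1, each alone in its column, out of the contrast. The median log2 difference was 0.80 over the mucin genes and -0.012 over all genes. Groups that did not overlap were found at 2 of the 20 mucin probes, both higher with DFX, where the background is 6.34% of all tested probes higher and 9.15% lower. No probe on the array had an adjusted p under 0.05 in limma with Benjamini-Hochberg adjustment. The lowest over all 31801 tested probes was 0.0674, and 8.41% of the probes had an unadjusted p under 0.05, with 3.47% higher and 4.95% lower. Since the genes were chosen with this contrast known, nothing is read from these counts.

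**Figure D2:**
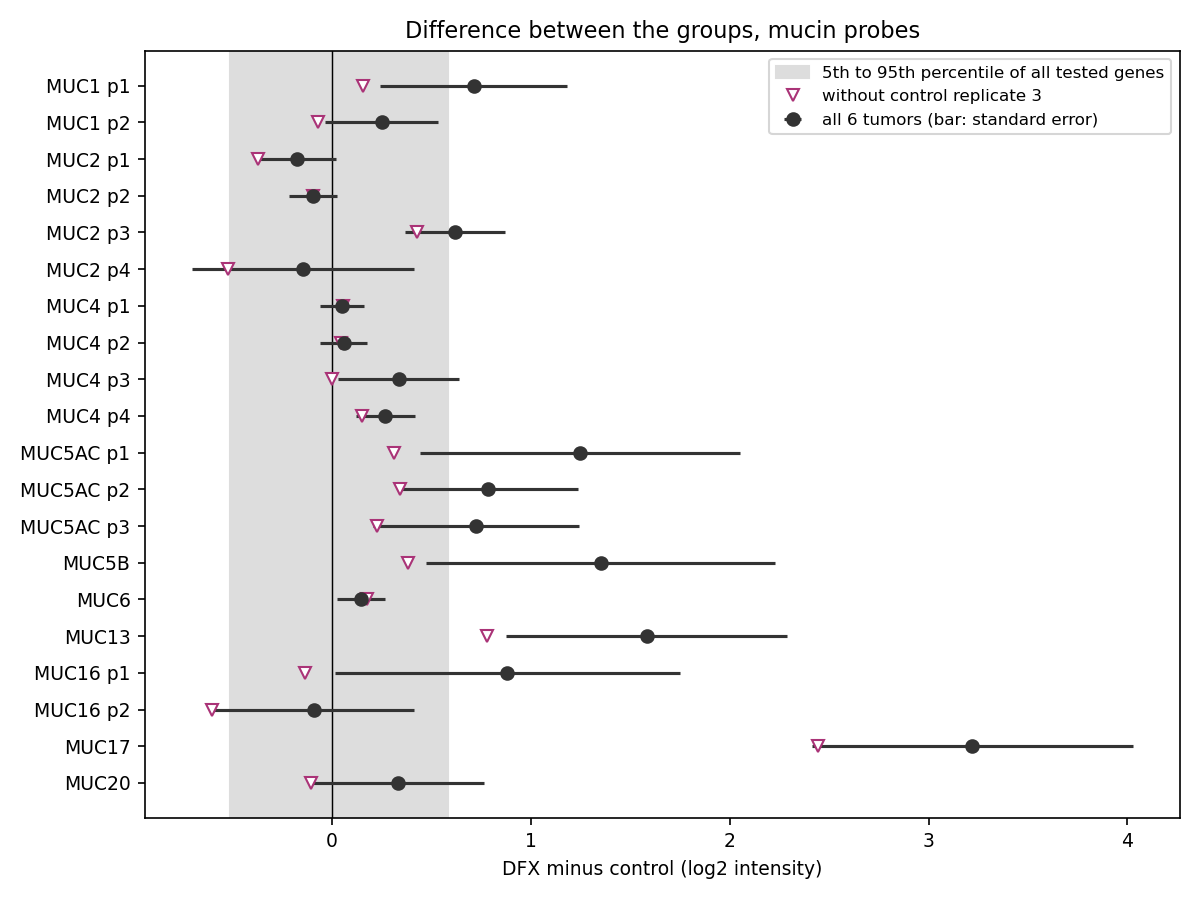
Difference between the means of the DFX-treated and control tumors in log2 intensity at each mucin probe, with its standard error (filled circles), and the same difference without control replicate 3 (open triangles). The gray band holds the central part of all tested genes over all 6 tumors, between the percentiles named in the legend. It was not recomputed without control replicate 3, so the open triangles are not read against it.

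At most mucin probes the values varied more among the control tumors than among the treated ones. The range over the 3 controls was wider than that over the 3 DFX-treated tumors at 18 of the 20 probes, compared with 53.8% of all tested probes. Control ranges ran from 0.15 to 3.53 and DFX ranges from 0.057 to 1.01 on the log2 scale, where the medians over all probes were 0.38 and 0.35. Control replicate 3 was the lowest of the 6 tumors at 16 of the 20 mucin probes and at 20.2% of all tested probes. Over all probes, the share at which a given tumor was the lowest ran from 12.2% to 20.7% among the 6. At 12 of the 20 mucin probes, control replicate 3 lay more than 1 log2 unit below the mean of control replicates 1 and 2, as did 3.51% of all tested probes. The genes were chosen by a contrast that uses these same values, and several probes belong to the same gene. These counts are therefore a description, and nothing is read from their distance to the shares over all probes.

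By brightest probe, the distance of control replicate 3 below the mean of the other controls was -3.06 for MUC16, -2.91 for MUC5B, -2.81 for MUC5AC, -2.41 for MUC13, -2.33 for MUC17, -1.67 for MUC1 and -1.32 for MUC20 on the log2 scale. MUC2 was at -0.58, MUC4 at 0.014 and MUC6 at 0.090. By these probes, the mucins fell into 7 genes that were low in this tumor by more than 1 log2 unit and 3 that were not. The split depends on the probe. MUC4 A_24_P208825 was at -1.01 and the dim MUC2 probe A_24_P84657 at -1.14, while the remaining MUC2 and MUC4 probes were not past 1 log2 unit. The second MUC1 probe was at -0.97. Control replicate 3 had 56.0% of its probes well above background, within the range of the other controls. Quantile normalization gives all arrays the same distribution, so a low position of a whole array could not be seen in these values. The cause of the low mucin values in this tumor was not tested. Without control replicate 3, the median over the 10 genes was 0.17, and 7 genes were higher with DFX, with MUC2, MUC16 and MUC20 lower. MUC17 was the 1 gene that kept a log2 difference above 1 without it, at 2.44.

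Taking each tumor on its own against the mean of the controls gave the same picture. The median over the 10 genes was 0.39 in control replicate 1, 0.60 in control replicate 2 and -1.34 in control replicate 3. It was 0.84, 0.70 and 0.70 in DFX replicates 1 to 3. The treated tumors therefore lay slightly above control replicates 1 and 2 and close to each other.

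**Figure D3:**
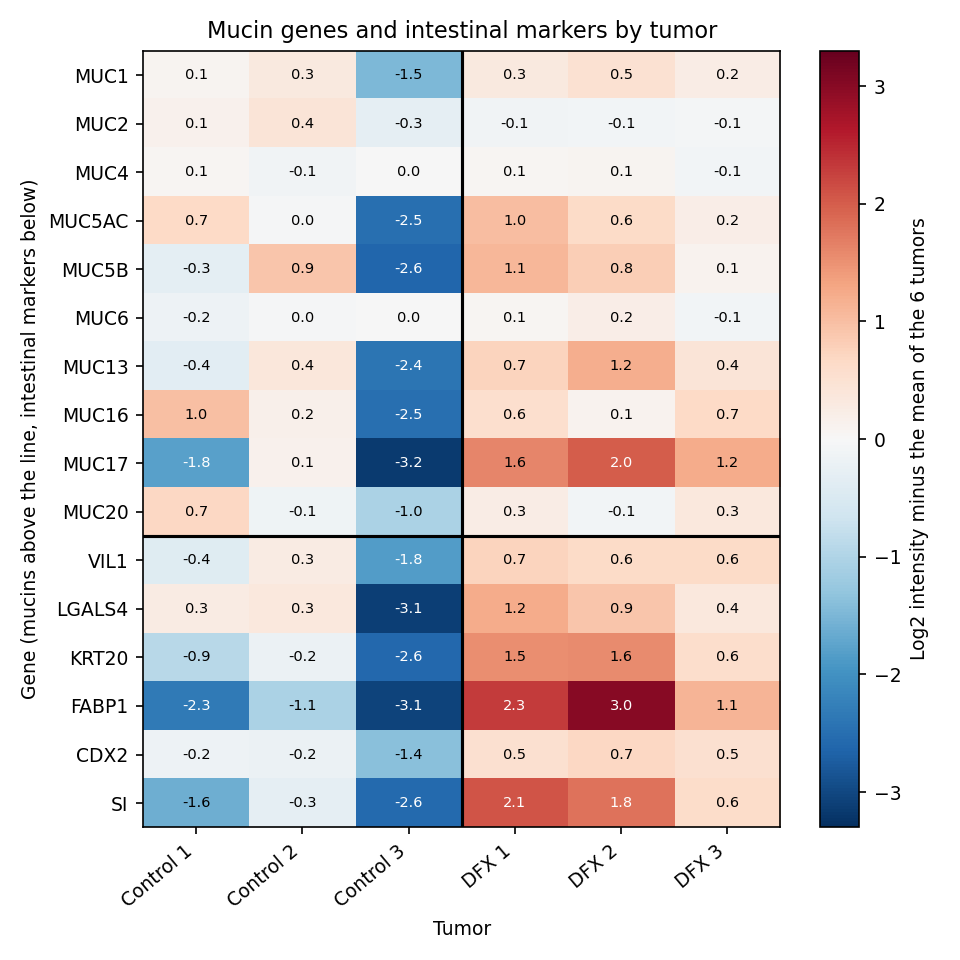
Log2 intensity minus the mean over the 6 tumors for the brightest tested probe of each of the 10 mucin genes (upper block) and of 6 intestinal epithelial markers (lower block), with columns for the 6 tumors. Control replicate 3 is far below the other tumors for MUC5AC, MUC5B, MUC13, MUC16 and MUC17 and near 0 for MUC4 and MUC6.

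Markers of intestinal epithelium were also higher with DFX, by more in the median than the mucins. Of the 7 markers, VIL1, LGALS4, KRT20, FABP1, CDX2 and SI were tested, and CDH17 did not pass the filter. SI was well above background on all 3 DFX arrays and no control array, and FABP1 on all 3 DFX arrays and 1 control array. All 6 were higher with DFX on average, 5 of them at an unadjusted p under 0.05 in limma and none at an adjusted p under 0.05, where 3.63% of all genes were higher and 4.28% lower unadjusted. Their median log2 difference was 2.06 and 1.27 without control replicate 3, beside 0.80 and 0.17 for the mucin genes. All 6 were lower in control replicate 3 than in the mean of the other controls, as were 6 of 7 pancreatic epithelial markers. No share over all genes is given for this count. Their summed linear intensity was 497 to 3080 in controls, with 497 in control replicate 3, and 3699 to 5817 in DFX-treated tumors. The part of these cells or genes in the mucin values was not tested.

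Markers of other cell types were counted in the same way, against 3.63% of all genes higher and 4.28% lower. Of the pancreatic epithelial markers, 3 of 7 (KRT8, KRT18 and EPCAM) were higher at an unadjusted p under 0.05, by 0.27 to 0.48 on the log2 scale, and their summed intensity was 658600 to 669141 in controls and 681669 to 689924 with DFX. None of 5 squamous markers and none of 6 leukocyte markers passed in either direction. Squamous markers summed to 147758 to 198388 in controls, with the highest value in control replicate 3, and to 162838 to 187105 with DFX. Leukocyte markers summed to 1985 to 2321 and 2076 to 2468. Of 5 tested fibroblast markers, LUM was higher and DCN lower, sums were 11733 to 19080 in controls and 10481 to 13103 with DFX, and POSTN and PDGFRB were well above background on no array. Of 4 tested endothelial markers, PECAM1 was higher, sums were 482 to 947 and 556 to 599, and KDR did not rise well above background anywhere. Of 3 tested red blood cell markers, HBA2 was lower by 1.93, and sums were 6549 to 7810 and 2965 to 3154. Their part in the mucin values was not tested.

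The genes whose profile over the 6 tumors was most like those of the 3 mucins with the largest differences were named by the root mean square distance between centered log2 profiles, over 18554 candidate genes. The distance is a description of these 6 tumors. For MUC17 the nearest were KRT20, an intestinal keratin (0.553), GPA33, an intestinal surface antigen (0.588), DMBT1, a mucosal scavenger receptor (0.666), TESC, a calcium-binding protein (0.742), and SPINK1, a trypsin inhibitor (0.788). Their log2 differences between the groups were 2.46, 2.15, 2.17, 2.04 and 2.18. MUC13 ranked 9th and MUC5B 15th from MUC17, and 15 genes in all were nearer than 1 log2 unit.

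Among the genes nearest to MUC13 were the adrenergic receptor ADRA2A (0.280), the nucleotide-hydrolyzing enzyme ENTPD8 (0.302), PRR15L (0.312) and the tetraspanin TSPAN8 (0.337). Among those nearest to MUC5B were MUC13 (0.340), the intestinal galectin LGALS4 (0.407), TMEM176A (0.420) and TMEM176B (0.426). MUC13 and MUC5B thus had similar profiles to each other. MUC5AC and MUC1 ranked 35th and 41st from MUC13, while MUC2, MUC6 and MUC4 were far away, at ranks 3759, 4811 and 7080.

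Of 14 other mucin or mucin-like genes, 13 were on the array and 7 were tested. None passed an unadjusted p under 0.05 in limma, where the background over all genes was 7.91%, with 3.63% higher and 4.28% lower. MUC21, a membrane mucin of stratified epithelium, read 7.12, 7.73 and 4.02 in controls and 7.69, 8.38 and 8.01 with DFX, which is again a low control replicate 3. Its log2 difference of 1.74 (SE 0.95) was 0.60 without that tumor. The MUC21 probe was well above background on 2 of the 3 control arrays and on 3 DFX arrays. The other differences were small, at -0.42 for MUC8, -0.21 for MUC15, -0.11 for MUCL1, -0.20 for OVGP1, 0.074 for MCAM and -0.16 for CD164, and the median was -0.16. MUC3A, MUC7, MUC12 and EMCN had no probe well above background on any array.

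O-glycosylation enzymes build the sugar chains of mucins. Of 27 tested genes, 4 were higher and none lower at an unadjusted p under 0.05, which is 14.8% of the list where 7.91% of all genes passed, with a median log2 difference of 0.15 that was 0.082 without control replicate 3. GALNT1 and GALNT10, which add the first sugar to serine or threonine, differed by 0.38 (SE 0.13) and 0.42 (SE 0.11). GALNTL4, now GALNT18 and of the same enzyme family, differed by 0.88 (SE 0.27). B3GNT3, which extends core chains, differed by 0.38 (SE 0.14). The groups of these 4 genes did not overlap. The 4 were named for a low p in this same contrast, which favors groups without overlap. The share over all probes, 6.34% higher without overlap, is therefore no measure for them, and nothing is read from it. Outside the 4, ST3GAL1 was higher and GALNT5 lower without overlap. The adjusted p of the 4 genes in limma with Benjamini-Hochberg adjustment was 0.514 to 0.570. GALNT10 and GALNTL4 were not low in control replicate 3, at 8.58, 8.56 and 8.69 and at 7.07, 6.91 and 7.56 in controls. GALNT1 read 10.75, 10.45 and 10.46 in controls, with replicate 3 level with replicate 2. B3GNT3 read 13.89, 13.91 and 13.57, with replicate 3 the lowest control.

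Genes of the mucus granule and the goblet cell had the most members that passed. Of 25 tested genes, 5 were higher and 1 lower at an unadjusted p under 0.05, which is 24% of the list where 7.91% of all genes passed, with a median log2 difference of 0.35 that was 0.18 without control replicate 3. SPINK4, a goblet cell peptide, read 8.72, 9.17 and 8.13 in controls and 11.17, 10.30 and 10.23 with DFX, a log2 difference of 1.90 (SE 0.36, adjusted p 0.513 in limma). DMBT1 read 9.05, 11.08 and 8.90 against 11.70, 12.46 and 11.37, a difference of 2.17 (SE 0.64). RETNLB, a goblet cell cytokine, differed by 0.93, the channel BEST2 by 0.66 and the tissue kallikrein KLK1 by 0.39, while the transcription factor GFI1 differed by -0.41 with overlapping groups. RETNLB was at 0.51 without DFX replicate 1, and the calls of GFI1, KLK1 and RETNLB were lost in 11, 8 and 7 of 21 alternative settings. In this list 23 of 25 genes were lower in control replicate 3 than in the mean of the other controls. The same count was 6 of 7 for other mucins, 16 of 27 for O-glycosylation, 16 of 26 for regulators and 11 of 19 for partners and sheddases. No share over all genes is given for it. FCGBP, a partner of MUC2 in mucus, read 10.60, 9.06 and 6.00 in controls. FCGBP was chosen after its values were seen. Summed intensity of the list was 119615 in control replicate 3, up to 327839 in the other controls and 309603 to 351846 with DFX. The brightest probes weigh most in this sum, so it does not describe the list as a whole. TFF3, the brightest, read 17.52, 17.23 and 15.20 in controls and 17.57, 17.29 and 17.52 with DFX.

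Among 26 tested regulators of mucin genes, 1 was higher and 1 lower, which is 7.69% of the list where 7.91% of all genes passed, with a median of 0.078 that was 0.014 without control replicate 3. CDX2, an intestinal transcription factor that acts on MUC2, read 7.78, 7.77 and 6.58 in controls and 8.50, 8.65 and 8.48 with DFX, a log2 difference of 1.17 (SE 0.34) that was 0.77 without control replicate 3. STAT3, a factor of cytokine signaling, differed by -0.29 (SE 0.11). Of 19 partners and sheddases of membrane mucins, MMP14, a membrane protease, was higher by 0.31 (SE 0.12) and none was lower, which is 5.26% of the list. The adjusted p of these genes in limma was not under 0.05.

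**Figure D4:**
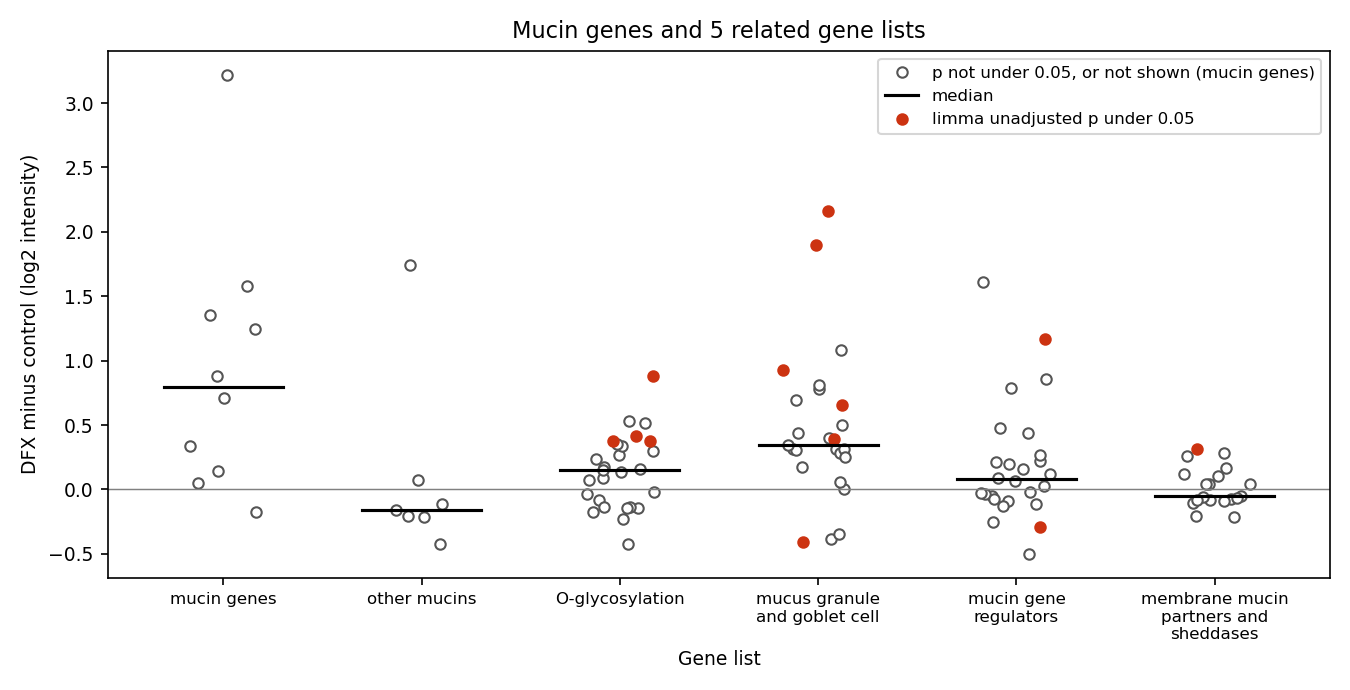
Difference between the DFX-treated and control tumors in log2 intensity for the brightest tested probe of each gene in the mucin genes and 5 related lists. Each circle is a gene, black bars are medians, and filled circles had an unadjusted p under 0.05 in limma, which is not shown for the mucin genes, whose median of 0.80 is beside 0.35 for the mucus granule and goblet cell list.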

How the data were processed

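The authors deposited 1 scanner file per array with linear intensities (mean, background and background-subtracted processed signal), a p-value of each spot against its background and flags, and a table of their normalized intensities. File headers give Agilent Feature Extraction 10.7.1.1, and the submitters' processing notes give 9.5.1.1. The authors' methods state log2 transformation, quantile normalization and removal of control probes and of any probe whose detection p was not under 0.05 in every sample, and name no test for the arrays.

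Here the processed signal of 58717 non-control spots was log2-transformed and quantile-normalized, 1398 flagged outlier values were dropped, replicate spots were averaged, and 31801 probes with a detection p under 0.05 on all 6 arrays were compared with limma 3.58.1 in R 4.3.3 (two-sided, Benjamini-Hochberg adjustment over all probes). The filter is two-sided and kept 1198 probes lacking a positive, significant signal on at least 1 array. The brightest tested probe stands for each gene. The deposited table differed from these intensities by a median of 0.639% and from a quantile normalization of the linear signal by 0.184%, and served as an alternative.

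The 3 tumors per group are separate tumors and were mapped by their labels. The members and lists were chosen with earlier results of these data known. Named were every mucin probe, every other tested mucin, up to 6 genes per list at an unadjusted p under 0.05, and the 5 nearest profiles of the 3 mucins with the largest differences, of which some are not reported here. Positions are those of the array annotation (hg19), and RefSeq served for symbols only. The procedure was tested on simulated data. The alternatives covered scaling, background correction, the authors' values, filters, outlier flags, the test, array weights, blocks for replicate number and slide column, averaging over a gene's probes, and omission of each tumor.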

Additional observations from a re-analysis of the deposited data

How the results depend on the processing

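Across 21 alternatives no list gene named at an unadjusted p under 0.05 turned direction, and cell type markers other than CDX2 were recomputed only without control replicate 3. Calls lost numbered 2 to 7 settings per gene for GALNT1, GALNT10, GALNTL4 and B3GNT3, 2 for BEST2, 7 for RETNLB and MMP14, 8 for KLK1 and STAT3, 11 for GFI1 and 0 for SPINK4, DMBT1 and CDX2. The median log2 difference of the mucin genes (0.80) was 0.42 with array quality weights to 1.096 with slide column as a block. Leaving out single tumors, it was 0.17 (control replicate 3) to 1.23. Control replicate 2 and DFX replicate 1 were alone in their slide columns. The slide column block thus compared control replicates 1 and 3 with DFX replicates 2 and 3 only. The genes higher with DFX were 9 of 10 in most settings, 8 with median scaling and without control replicate 2 (MUC2 and MUC4 lower) and 7 without control replicate 3. With slide column as a block MUC4 was the lower gene and MUC2 turned to 0.012. MUC17 was at 2.11 to 4.10 and MUC13 at 0.78 to 2.19. Mucin probes whose groups did not overlap numbered 2, and 1 with median scaling, which moved all probes by a median of -0.10. They numbered 2 to 8 when each tumor was dropped (8, 4 and 3 without control replicates 1, 2 and 3, and 6 without DFX replicate 3). Groups of fewer tumors overlap less easily. No share over all probes is given for these settings, so nothing is read from their counts. Over all probes, 2675 passed unadjusted, 4926 with the Kruskal-Wallis H test (the methods name it for in vivo experiments, and with 3 tumors a group it passes the probes whose groups do not overlap), 4213 with array quality weights, 1420 with slide column as a block and 1889 to 2717 with 1 tumor left out. O-glycosylation genes that passed (4) were 1 with median scaling, 0 with the slide column block and 3 to 5 with 1 tumor left out. Goblet cell genes (6) were 3 with the slide column block and 4 to 7 with 1 tumor left out. Regulators (2) were 4 with array weights and with the Kruskal-Wallis H test, 1 with averaged probes and 1 to 4 with 1 tumor left out. Partners and sheddases (1) were 2 with raw signal, without a filter, without moderation, with array weights and with the Kruskal-Wallis H test, 0 with the slide column and replicate blocks and 0 to 1 with 1 tumor left out. Other mucins (0) were 1 with normexp, array weights, the slide column block and the replicate block, and 0 to 1 with 1 tumor left out. The cause was not tested. With the replicate number as a block, 2419 probes passed. The numbers did not pair the tumors, since deviations of same-numbered tumors correlated at 0.016 to 0.027. Averaging a gene's probes gives no value for counts of probes. Signal over background limits the dim probes of MUC2, MUC5AC, MUC6, MUC16 and MUC17, and the MUC21 probe in controls.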
